A study of Homo sapiens with 38 samples.

Results

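The 10 genes examined here, E2F1, E2F3, RBL1, RBL2, CCND1, CCND2, BCL2L11, ZBTB4, ZNFX1 and TXNIP, are known targets of the miR-17 seed family. They were chosen by name, as reported targets of miR-17, miR-20, miR-93 and miR-106, with earlier results of these data known. They are 10 of the 58425 genes with a matched transcript. Their reads were summed over transcripts in 30 RNA-seq libraries of HCT116 cells, a human colorectal carcinoma line. The libraries covered nuclear and cytoplasmic RNA of 5 genotypes, with 3 libraries in each of the 10 groups. The genotypes were wild type, with no AGO gene edited, and 4 knockout lines that lack AGO1, AGO2, both AGO1 and AGO2 (AGO1/2), or AGO1, AGO2 and AGO3 (AGO1/2/3). The labels name no treatment. Replicates were named by culture passage, which was 27, 28 and 29 for wild type, 6, 7 and 8 for AGO1, 8, 9 and 10 for AGO2, 9, 10 and 11 for AGO1/2, and 11, 12 and 14 for AGO1/2/3. Each genotype was 1 line and no knockout passage matched a wild-type passage. Genotype, clone and passage therefore cannot be told apart in any value below.

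The miR-17 family is encoded in the miR-17-92, miR-106a-363 and miR-106b-25 clusters and is abundant in proliferating and tumor cells. A mature miRNA guides an Argonaute (AGO) protein to messenger RNAs that pair with its seed, the bases near the 5′ end, and the bound AGO lowers the stability and translation of the messenger. The best known targets of the family act in cell cycle entry (the E2F, RBL and CCND genes), apoptosis (BCL2L11, which encodes BIM) and transcriptional repression (ZBTB4).

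Because all members of the family share a seed, any of them could pair with the same site. The 6 mature sequences, from RefSeq with the build GRCh38.p14, are shown 5′ to 3′ with the seed (bases 2 to 8) in capitals.
miR-17-5p: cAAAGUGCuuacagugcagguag
miR-20a-5p: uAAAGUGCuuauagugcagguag
miR-20b-5p: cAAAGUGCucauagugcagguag
miR-93-5p: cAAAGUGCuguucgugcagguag
miR-106a-5p: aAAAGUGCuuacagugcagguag
miR-106b-5p: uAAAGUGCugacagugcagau

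The genes lie, in GRCh38, at chr11:69641156-69654474 (CCND1, ENSG00000110092.4), chr12:4269771-4305353 (CCND2, ENSG00000118971.9), chr20:33675477-33686385 (E2F1, ENSG00000101412.13), chr6:20401879-20493714 (E2F3, ENSG00000112242.16) and chr20:36996349-37095997 (RBL1, ENSG00000080839.12). The others lie at chr16:53433977-53491648 (RBL2, ENSG00000103479.17), chr2:111119378-111168444 (BCL2L11, ENSG00000153094.25), chr17:7459366-7484263 (ZBTB4, ENSG00000174282.12), chr20:49237946-49278426 (ZNFX1, ENSG00000124201.15) and chr1:145992435-145996579 (TXNIP, ENSG00000265972.6).

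The sequence complementary to this seed is GCACTTT on the messenger strand. A match to those 7 bases is called a 7mer-m8, the same match followed by A (GCACTTTA) an 8mer, and CACTTTA alone a 7mer-A1. These classes were searched on the sense strand of annotated 3′ UTRs. An 8mer holds both kinds of 7mer and was counted once, as an 8mer. A match is a description of the letters and not a measured binding site. Every one of the 10 genes held at least 1 such site in the 3′ UTR of its canonical transcript, with 21 sites in all, of which 7 were 8mers. Of 19375 genes with an annotated 3′ UTR, 27.3% held a site and 4.48% an 8mer. The shortest 3′ UTR among the 10 genes was 1255 nt. Among 8809 genes with a 3′ UTR at least that long, 49.1% held a site and 8.43% an 8mer. ZNFX1 held 4 sites, ZBTB4 held 3, E2F3 and CCND2 held 1 each, and the other 6 genes held 2 each. The 8mers were in E2F3, BCL2L11, RBL2, ZBTB4 and TXNIP, with 1 each, and in ZNFX1, with 2.

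For 7 of the 8 genes whose reads were measurable, the longest match of each follows, or its first where several were equal, as 30 bases of the GRCh38 messenger strand. Capitals mark the match, and the coordinates are those of the 30 bases, all inside the annotated 3′ UTR.
CCND1, 7mer-m8, chr11:69652285-69652314, plus strand: tccatttccaaGCACTTTcagtccaatagg
ZBTB4, 8mer, chr17:7460062-7460091, minus strand: tcttgtttctgGCACTTTAgaaaaactgca
ZNFX1, 8mer, chr20:49246765-49246794, minus strand: cgctagagtaaGCACTTTAtctccagaact
BCL2L11, 8mer, chr2:111166219-111166248, plus strand: tcctgactagaGCACTTTActctgtttcct
E2F1, 7mer-m8, chr20:33676327-33676356, minus strand: gggctctaactGCACTTTcggcccttttgc
E2F3, 8mer, chr6:20492243-20492272, plus strand: agatgacaccaGCACTTTAaactctttgtg
RBL2, 8mer, chr16:53490923-53490952, plus strand: tataagtggagGCACTTTAgggctgtaaaa

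Cytoplasmic libraries held 39476205 to 79731793 estimated reads and nuclear libraries 20431557 to 54097984, and wild type was the shallowest genotype in both fractions. The summed TPM of 6 epithelial marker genes was 1192 to 1358 in cytoplasmic wild-type libraries and 819.6 to 1343 in cytoplasmic knockout libraries, and of 9 markers of other cell types 8 were under 1 TPM. Cytoplasmic CDH1, which encodes E-cadherin, was at 12.3 TPM in wild type, 1.12 in AGO1/2 and 1.90 in AGO1/2/3 cells. AGO1 messenger fell in each line edited at AGO1, by 3.49, 3.19 and 3.29 on the log2 scale in the cytoplasm of AGO1, AGO1/2 and AGO1/2/3 cells. AGO2 messenger was lower in cytoplasmic AGO2 knockout RNA (log2 fold change -0.67) but higher in AGO1/2 (0.31). The sources used here do not say where each gene was cut, so AGO2 and AGO3 reads do not check those genotypes. The authors probed the knockout lines for AGO proteins by western blot, which was not examined here. The summed TPM of NEAT1 and MALAT1, nuclear noncoding RNAs, was 2789 to 3665 in nuclear wild-type libraries and 1259 to 2164 in nuclear knockout libraries. In the same nuclear libraries the messengers GAPDH and ACTB summed to 1124 to 1462 TPM in wild type and 1494 to 3018 in knockout lines, and the 6 epithelial genes to 1168 to 1279 and 1039 to 2801. The part of these differences in the results was not tested. In these bulk libraries, fewer cells expressing a gene and less RNA per cell cannot be told apart.

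The 10 genes differed widely in level. On the TPM scale, which corrects for transcript length, CCND1 had the highest level in wild-type cytoplasm, with 134, 119 and 103 TPM at passages 27, 28 and 29. The next genes lay far below it, with means of 9.51 ± 1.93 TPM for ZNFX1, 9.12 ± 2.21 for E2F3, 8.03 ± 0.779 for RBL1, 6.91 ± 0.994 for E2F1 and 6.18 ± 0.614 for RBL2 (SD, n = 3). Each of these overlapped its neighbor in that order. ZBTB4 (4.95 ± 0.102) lay below all RBL2 libraries and BCL2L11 (3.54 ± 0.174) below all ZBTB4 libraries. In the nucleus of wild-type cells CCND1 again led, with 93.2 ± 12.7 TPM, followed by ZNFX1 (16.3 ± 3.43), RBL2 (15.3 ± 2.30), RBL1 (13.3 ± 3.39), E2F3 (10.3 ± 2.85), BCL2L11 (7.77 ± 0.535), E2F1 (6.33 ± 0.223) and ZBTB4 (5.04 ± 0.294). From ZNFX1 to BCL2L11 each gene overlapped the next in that order. BCL2L11 lay above all E2F1 libraries and E2F1 above all ZBTB4 libraries.

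CCND2 and TXNIP did not pass the filter on low counts and were not tested in the main fits. CCND2, a D-type cyclin like CCND1, had 40 estimated reads over all 30 libraries, with 0 to 6 per library and 0 in 11 of them. TXNIP, an arrestin-domain protein that inhibits thioredoxin and glucose uptake, was listed at 0 reads in all 30 libraries. Where CCND2 had 0 reads, counting error alone allows a level of up to 3 reads, and 3 reads are 0.0385 to 0.152 CPM (reads scaled to library size) over the 30 libraries. An exact 0 in every library can also be a failed estimate, which was not tested, so no limit on the level of TXNIP is drawn from it. All 8 other genes had reads in all 30 libraries and were tested in every comparison.

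**Figure D1:**
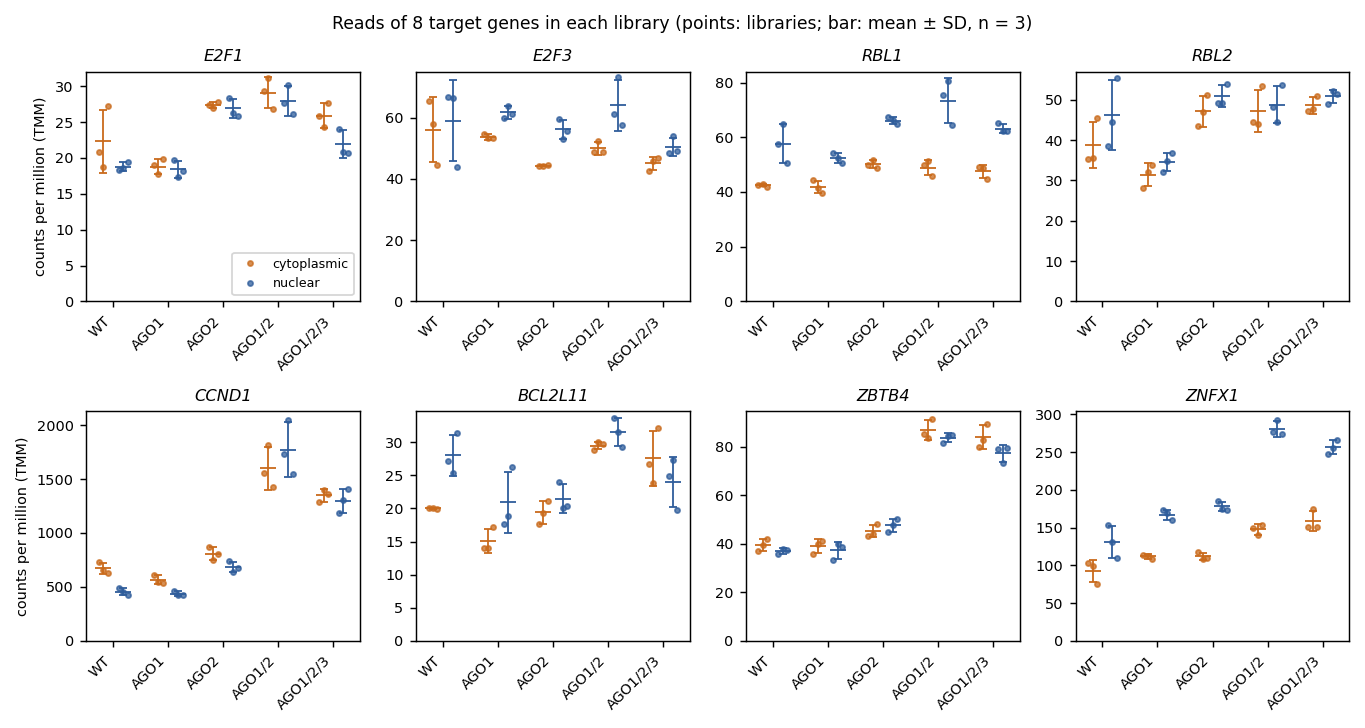
CPM, library-size scaled counts (TMM scaled within a fraction) of the 8 measurable target genes on the vertical axis of each panel, by genotype, with cytoplasmic libraries in orange and nuclear libraries in blue. Points are libraries and bars are the mean ± SD of 3. CCND1, ZBTB4 and ZNFX1 libraries of AGO1/2 and AGO1/2/3 cells all lie above the wild-type libraries in both fractions.

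Each knockout line was compared with wild type to ask what loss of AGO proteins does to the abundance of these messengers. The comparisons used reads in edgeR, with each library shown as CPM, with p-values adjusted over all genes tested in the fraction. In cytoplasmic AGO1/2 knockout RNA, 7 of the 8 tested genes were higher and 0 were lower, where 23.9% of all genes were called higher and 25.4% lower. The libraries of 5 of the 8 genes did not overlap wild type, as for 51.0% of all genes. In cytoplasmic AGO1/2/3 RNA, 6 were higher and 1 was lower, against 18.6% and 20.0% of all genes, and 6 did not overlap wild type, against 46.5%. In cytoplasmic AGO1 RNA 0 were higher and 1 was lower (4.28% and 8.13% of all genes), with 4 not overlapping (29.7%). In cytoplasmic AGO2 RNA 1 was higher and 1 lower (7.07% and 9.0%), with 5 not overlapping (31.8%). Among the uncalled AGO2 changes on the log2 scale, E2F1 was at 0.30, RBL2 at 0.28, ZNFX1 and CCND1 at 0.27, ZBTB4 at 0.19 and BCL2L11 at -0.05. The positive ones had an edgeR adjusted p of 0.0648 to 0.0991. The median log2 fold change of the 8 genes was 0.47 in cytoplasmic AGO1/2 and 0.39 in AGO1/2/3 RNA. Over all genes tested it was -0.01 and -0.01. In AGO1 and AGO2 RNA it was -0.15 and 0.26 for the 8 genes and -0.01 and 0.00 for all genes.

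In nuclear RNA, 5 of the 8 genes were higher and 0 lower in AGO1/2 cells, where 32.9% of all genes were called higher and 34.7% lower, and 4 did not overlap wild type, against 66.5% of all genes. In nuclear AGO1/2/3 cells 4 were higher and 0 lower (29.1% and 29.5% of all genes), with 4 not overlapping (61.0%). In nuclear AGO2 cells 4 were higher and 1 lower (20.2% and 19.9%), with 5 not overlapping (48.4%). In nuclear AGO1 cells 1 was higher and 2 lower (14.3% and 15.6%), with 2 not overlapping (41.8%). The share of target genes that did not overlap wild type was below that of all genes in AGO1, AGO1/2 and AGO1/2/3 nuclei and above it in AGO2 nuclei. The median log2 fold changes were 0.46 in AGO1/2, 0.18 in AGO1/2/3, 0.28 in AGO2 and -0.04 in AGO1 nuclear RNA. Over all genes tested they were -0.06, -0.03, -0.02 and -0.03. Genes with no seed match, given below, had higher medians than all genes in AGO1/2 and AGO1/2/3 nuclei. The AGO1/2/3 median of the 8 genes was near that of genes with no match. The nuclear and cytoplasmic libraries came from the same cell lines, and the 4 comparisons of a fraction share the same wild-type libraries.

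These splits differed on the TPM scale, where the values had no further scaling between libraries. On log2(TPM + 1), tested with limma, the median over all genes lay at -0.08, -0.13, -0.20 and -0.13 in the cytoplasm of the AGO1, AGO2, double and triple knockouts, and at -0.17, -0.17, -0.07 and -0.16 in their nuclei. On that scale 2 target genes were higher and 1 lower in cytoplasmic AGO1/2 RNA, where 1355 of 17605 genes were higher and 8778 lower. There 13.4% of all calls were higher and not 48.5%. In cytoplasmic AGO1/2/3 RNA 3 were higher and 1 lower, beside 1427 and 6653 of all genes (17.7% of all calls higher and not 48.2%). In nuclear AGO1/2 RNA 4 were higher and 1 lower, beside 4947 and 6648 of 18919 genes (42.7% and not 48.7%). In nuclear AGO1/2/3 RNA 3 were higher and 2 lower, beside 2704 and 7483 (26.5% and not 49.7%). In the single knockouts no target gene was higher on the TPM scale, with 4 and 2 lower in cytoplasmic AGO1 and AGO2 RNA and 2 and 2 lower in their nuclei. Of all genes 3005 and 4785 were lower and 238 and 305 higher in that cytoplasm. In those nuclei 5777 and 6311 were lower and 362 and 679 higher. Over these 4 comparisons 7.34%, 5.99%, 5.90% and 9.71% of all calls were higher. CCND1 and ZBTB4 were higher in AGO1/2 and AGO1/2/3 cells, in both fractions, on both scales. With reads scaled by transcript length and then by TMM, edgeR tested 9 target genes in cytoplasm. The added gene was CCND2, which passed the filter after this scaling although it had 0 to 6 reads per library. It called 6 higher and 0 lower in AGO1/2 (3873 and 4137 of 17668 genes) and 6 higher and 1 lower in AGO1/2/3 (2987 and 3192). In AGO1/2 nuclei 5 were higher and 1 lower, and in AGO1/2/3 nuclei 4 and 1 (6168 and 5932, and 5478 and 4876, of 18952 genes). The part of the missing scaling in the TPM counts was not tested. With edgeR on the compared groups alone, the calls of E2F1, E2F3, RBL1 and RBL2 in the cytoplasm of knockout lines against wild type were all lost (adjusted p of 0.0554 to 0.157), as were those of BCL2L11 in AGO1 cytoplasm (0.0658), of BCL2L11, RBL2 and ZNFX1 in AGO1 nuclei (0.109, 0.0722 and 0.0554) and of E2F1 in AGO1/2/3 nuclei (0.0738).

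**Figure D2:**
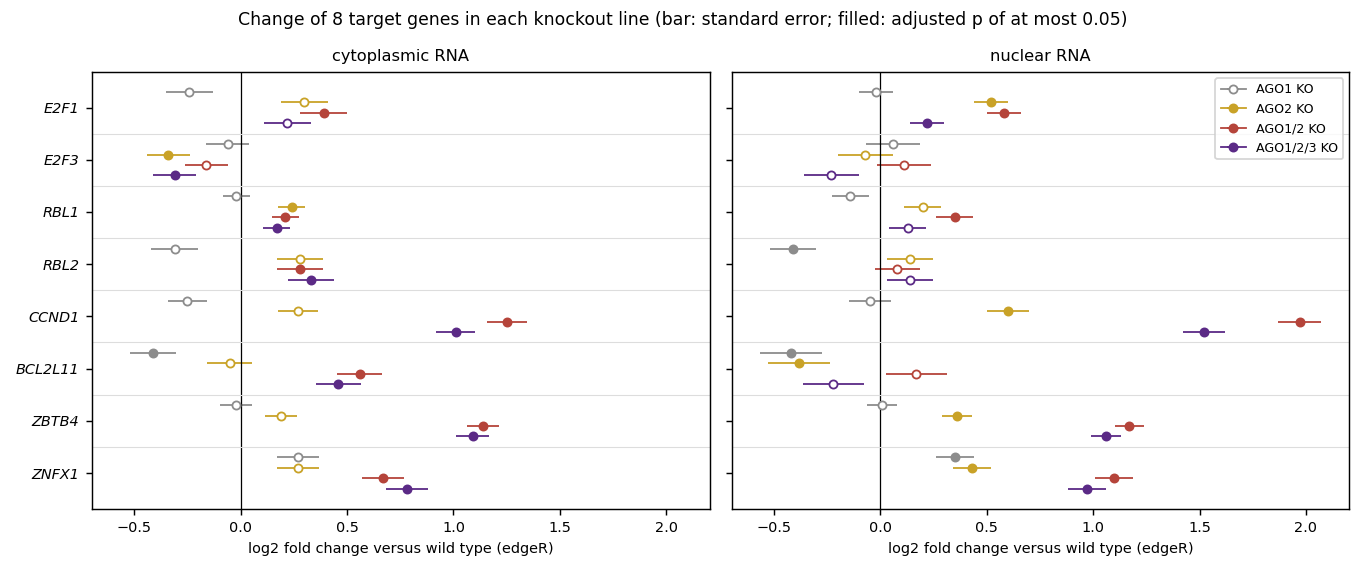
The log2 fold change against wild type (edgeR on reads) on the horizontal axis for each of 8 target genes, in cytoplasmic (left) and nuclear RNA (right). Colors are knockout lines, bars are standard errors, and filled points have an adjusted p of at most 0.05. CCND1 reaches 1.97 in nuclear AGO1/2 RNA, and the AGO1 knockout points lie between -0.42 and 0.35.

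CCND1, the D-type cyclin that activates CDK4 and CDK6 in G1, had the largest change of the 8 genes in AGO1/2 cells of both fractions. In cytoplasmic RNA it stood at 729, 661 and 626 CPM in wild type, at 614, 544 and 536 in AGO1, at 868, 751 and 807 in AGO2, at 1553, 1813 and 1426 in AGO1/2, and at 1283, 1402 and 1364 in AGO1/2/3 cells. AGO1/2 and AGO1/2/3 libraries lay above every library of the other 3 genotypes. The log2 fold change against wild type was 1.25 ± 0.0936 in AGO1/2 (standard error, n = 3 per group; edgeR adjusted p = 1.0e-07) and 1.01 ± 0.0931 in AGO1/2/3 (edgeR adjusted p = 1.2e-06). It was 0.27 in AGO2 and -0.25 in AGO1 cells, and neither passed the test (edgeR adjusted p = 0.0648 and 0.0916). By limma on log2(TPM + 1), the AGO1/2 and AGO1/2/3 changes were 0.83 and 0.75.

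Nuclear CCND1 rose in AGO2, AGO1/2 and AGO1/2/3 cells. The nuclear libraries held 487, 451 and 421 CPM in wild type, 465, 426 and 421 in AGO1, 738, 641 and 679 in AGO2, 1729, 2045 and 1544 in AGO1/2, and 1180.4, 1301 and 1408 in AGO1/2/3 cells. The 3 AGO2 libraries lay above wild type, and the AGO1/2 libraries above all others. AGO1/2 nuclei had a log2 fold change of 1.97 ± 0.102 (edgeR adjusted p = 5.4e-10), 1.52 ± 0.10 in AGO1/2/3 (9.4e-09) and 0.60 ± 0.0987 in AGO2 (2.6e-04). The AGO2 change was 0.33 with an adjusted p of 0.066 in limma on log2(TPM + 1). Nuclear CCND1 was lower in AGO1/2/3 than in AGO1/2 cells, by a log2 fold change of -0.45 ± 0.0983 (edgeR adjusted p = 0.0318), with no overlap of the libraries. The CCND1 call did not hold when the passage 9 or 10 AGO1/2 library or the passage 11 or 12 AGO1/2/3 library was left out (log2 fold change -0.34 to -0.47).

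ZBTB4, a zinc finger protein that represses transcription at methylated DNA, rose in both multiple knockouts. Its cytoplasmic libraries held 36.9, 39.5 and 42.2 CPM in wild type, 35.9, 40.0 and 41.3 in AGO1, 43.4, 44.2 and 48.1 in AGO2, 85.2, 83.7 and 91.7 in AGO1/2, and 79.8, 83.0 and 89.5 in AGO1/2/3 cells. The libraries of AGO1/2 and AGO1/2/3 cells overlapped each other and no library of the other genotypes. ZBTB4 was 2.20-fold higher in AGO1/2 (log2 fold change 1.14 ± 0.0762, edgeR adjusted p = 3.6e-08) and 2.13-fold higher in AGO1/2/3 cytoplasm (1.09 ± 0.0761, 7.8e-08). In the nucleus the folds were 2.26 and 2.09, from 35.9, 38.0 and 37.5 CPM in wild type to 81.6, 84.4 and 85.1 in AGO1/2 and 79.3, 73.4 and 79.6 in AGO1/2/3 cells (edgeR adjusted p = 1.9e-09 and 8.7e-09). Nuclear AGO2 libraries, at 44.7, 47.8 and 50.4 CPM, also lay above wild type (log2 fold change 0.36, edgeR adjusted p = 8.9e-04), a change of 0.09 that did not pass on the TPM scale. Both coding transcripts of ZBTB4 hold an 8mer. As length-corrected levels, the mean of ZBTB4-202 was 2.34 TPM in wild-type and 4.62 in AGO1/2/3 cytoplasm, and that of ZBTB4-201 was 2.61 and 4.26.

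ZNFX1, an RNA helicase with a zinc finger that senses viral RNA, rose in both multiple knockouts as well. The cytoplasmic libraries were at 103, 99.3 and 75.9 CPM in wild type, 149.5, 139.8 and 154 in AGO1/2, and 151, 175 and 151 in AGO1/2/3 cells. They were at 114, 113 and 108 CPM in AGO1 and 117, 108 and 109.7 in AGO2 cells, also above wild type. Those log2 fold changes of 0.27 and 0.27 did not pass (edgeR adjusted p = 0.0912 and 0.0817). Wild-type passage 29 was the lowest of the 15 cytoplasmic libraries. ZNFX1 changed by 0.67 ± 0.0981 in AGO1/2 cytoplasm (edgeR adjusted p = 5.6e-05) and 0.78 ± 0.0982 in AGO1/2/3 (2.3e-05). On the TPM scale the AGO1/2 change was 0.24 and did not pass (limma adjusted p = 0.119), and the AGO1/2/3 change was 0.50 (0.00503). The nuclear libraries were at 153, 131 and 110.0 CPM in wild type, 276, 293 and 274 in AGO1/2, and 248, 256 and 266 in AGO1/2/3 cells, with no overlap. Nuclear ZNFX1 was 2.14-fold higher in AGO1/2 and 1.95-fold higher in AGO1/2/3 cells (edgeR adjusted p = 5.0e-08 and 2.9e-07). It was also higher in nuclear AGO1 (log2 fold change 0.35, edgeR adjusted p = 0.00888) and AGO2 cells (0.43, 0.00137), where on the TPM scale the changes were 0.09 and 0.15 and did not pass.

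BCL2L11 encodes BIM, a BH3-only protein that opposes BCL2 and starts mitochondrial apoptosis. Its cytoplasmic libraries held 20.1, 20.1 and 19.9 CPM in wild type, 14.0, 14.0 and 17.2 in AGO1, 17.6, 19.3 and 21.2 in AGO2, 28.9, 30 and 29.7 in AGO1/2, and 26.7, 23.9 and 32.1 in AGO1/2/3 cells. All AGO1 libraries lay below and all AGO1/2 and AGO1/2/3 libraries above the narrow wild-type range. BCL2L11 changed by 0.56 ± 0.106 in AGO1/2 (edgeR adjusted p = 5.1e-04), 0.46 ± 0.106 in AGO1/2/3 (0.00306) and -0.41 ± 0.107 in AGO1 (0.0217). With TPM the changes in AGO1/2 and AGO1/2/3 were 0.15 and 0.18 and did not pass (limma adjusted p = 0.121 and 0.0741). The AGO1 call did not hold when the passage 6 or 7 AGO1 library was left out.

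Nuclear BCL2L11 did not rise in the multiple knockouts. The libraries held 27.2, 25.4 and 31.4 CPM in wild type, 33.6, 31.6 and 29.3 in AGO1/2, and 24.9, 27.3 and 19.8 in AGO1/2/3 cells, with overlap in both comparisons. The log2 fold changes of 0.17 in AGO1/2 and -0.22 in AGO1/2/3 did not pass (edgeR adjusted p = 0.299 and 0.201), and on the TPM scale they were -0.26 and -0.76, the second of which was lower with a limma adjusted p of 7.8e-05. In nuclear AGO1 and AGO2 cells BCL2L11 was lower by 0.42 and 0.38 on the log2 scale (edgeR adjusted p = 0.0407 and 0.047). The AGO1 call was lost without wild-type passage 27 or 29 or AGO1 passage 6 or 7, and the AGO2 call without any of the 3 wild-type libraries or AGO2 passage 9 or 10 (edgeR adjusted p of 0.0527 to 0.178 over these fits).

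E2F1 and E2F3 are activator E2F transcription factors, which drive S-phase genes, and they did not change alike. Cytoplasmic E2F1 was at 20.8, 18.8 and 27.2 CPM in wild type, 19.0, 17.7 and 19.8 in AGO1, 27.4, 26.9 and 27.8 in AGO2, 29.3, 31.2 and 26.8 in AGO1/2, and 25.8, 24.3 and 27.7 in AGO1/2/3 cells. Wild-type passage 29 lay among the AGO2, AGO1/2 and AGO1/2/3 libraries. Cytoplasmic E2F1 was higher in AGO1/2 (log2 fold change 0.39 ± 0.109, edgeR adjusted p = 0.00898), although the change was -0.02 on the TPM scale. The AGO1/2/3 change of 0.22 did not pass (edgeR adjusted p = 0.13; -0.01 on the TPM scale). Without wild-type passage 29 it was 0.39 (0.00144).

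Nuclear E2F1 separated the genotypes more clearly. It was at 18.3, 18.6 and 19.4 CPM in wild type, 19.7, 17.4 and 18.2 in AGO1, 28.4, 26.3 and 25.9 in AGO2, 27.6, 30.2 and 26.1 in AGO1/2, and 24.1, 20.8 and 20.7 in AGO1/2/3 cells. All AGO2, AGO1/2 and AGO1/2/3 libraries lay above wild type. The log2 fold change was 0.52 ± 0.0800 in AGO2 (edgeR adjusted p = 1.5e-04), 0.58 ± 0.0795 in AGO1/2 (1.2e-05) and 0.22 ± 0.0801 in AGO1/2/3 (0.0265). In TPM these were 0.24, 0.49 and 0.00, and only the AGO1/2 change passed (limma adjusted p = 0.00108). The AGO1/2/3 call was lost without AGO1/2/3 passage 11 (0.15, edgeR adjusted p = 0.131) and with a mean of at least 50 reads (0.15, 0.103). Nuclear E2F1 was lower in AGO1/2/3 than in AGO1/2 cells by 0.35 ± 0.0773 on the log2 scale (edgeR adjusted p = 0.032), a call lost without AGO1/2 passage 9 or 10 or any AGO1/2/3 library.

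E2F3 was lower, not higher, where it was called. Cytoplasmic E2F3 was at 65.4, 58.0 and 44.5 CPM in wild type, 54.7, 53.3 and 53.2 in AGO1, 44.1, 44.2 and 44.5 in AGO2, 48.7, 52.3 and 48.8 in AGO1/2, and 42.5, 45.9 and 46.7 in AGO1/2/3 cells. Wild-type passage 29 lay far below the other wild-type libraries, and within the AGO1/2/3 range. The log2 fold change was -0.34 ± 0.101 in AGO2 (edgeR adjusted p = 0.035), -0.31 ± 0.101 in AGO1/2/3 (0.0234) and -0.16 ± 0.101 in AGO1/2, which did not pass (0.197). The AGO2 call was lost without wild-type passage 27 or 28 or any AGO2 library, and the AGO1/2/3 call without wild-type passage 27 or 28 or AGO1/2/3 passage 11. Without wild-type passage 29 the AGO1/2 change was -0.30 (0.00138). Nuclear E2F3 was not called in any knockout, with log2 fold changes of -0.23 to 0.11 and with 66.8, 66.3 and 43.9 CPM in the wild-type libraries. Without wild-type passage 29 the nuclear E2F3 change in AGO1/2/3 cells was -0.37 and passed (edgeR adjusted p = 0.00157).

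RBL1 (p107) and RBL2 (p130) are pocket proteins related to RB1 that repress E2F-driven transcription. Cytoplasmic RBL1 was at 42.4, 42.8 and 42.0 CPM in wild type, 44.2, 41.5 and 39.6 in AGO1, 50.0, 51.8 and 48.9 in AGO2, 49.7, 51.2 and 45.8 in AGO1/2, and 49.1, 48.9 and 44.8 in AGO1/2/3 cells. The AGO2, AGO1/2 and AGO1/2/3 libraries all lay above wild type by a small margin. The log2 fold change was 0.24 ± 0.0635 in AGO2 (edgeR adjusted p = 0.0173), 0.21 ± 0.0635 in AGO1/2 (0.0147) and 0.17 ± 0.0635 in AGO1/2/3 (0.0495), but -0.01, -0.13 and -0.04 on the TPM scale. The AGO2 call was lost without AGO2 passage 8 or 9, the AGO1/2 call without AGO1/2 passage 10, and the AGO1/2/3 call without any wild-type library or AGO1/2/3 passage 11 or 12. Nuclear RBL1 was higher in AGO1/2 (75.3, 80.7 and 64.3 CPM against 57.5, 65.0 and 50.6 in wild type). That log2 fold change was 0.35 ± 0.0871 (edgeR adjusted p = 0.00249), and 0.21 without a call on the TPM scale.

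RBL2 was called higher in the cytoplasm of the multiple knockouts on the read scale. In AGO2 cytoplasm RBL2 had a log2 fold change of 0.28 ± 0.109, as in AGO1/2, but did not pass (edgeR adjusted p = 0.0974). Its cytoplasmic libraries were at 35.4, 35.5 and 45.4 CPM in wild type, 28.2, 32.2 and 33.8 in AGO1, 43.4, 46.9 and 51.1 in AGO2, 44.5, 43.9 and 53.3 in AGO1/2, and 47.2, 47.7 and 51.0 in AGO1/2/3 cells. Wild-type passage 29 was the highest of its group and overlapped the AGO2 and AGO1/2 libraries. The log2 fold change was 0.28 ± 0.109 in AGO1/2 (edgeR adjusted p = 0.0429; -0.12 on the TPM scale) and 0.33 ± 0.109 in AGO1/2/3 (0.0276; 0.07 on the TPM scale). Both calls were lost without wild-type passage 27 or 28, the AGO1/2 call without AGO1/2 passage 11, and the AGO1/2/3 call without AGO1/2/3 passage 14.

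Nuclear RBL2 was at 38.5, 44.5 and 55.5 CPM in wild type and at 32.2, 34.8 and 36.8 in AGO1 cells. It was lower in AGO1 (log2 fold change -0.41 ± 0.108, edgeR adjusted p = 0.00957), with no overlap. The changes of 0.14, 0.08 and 0.14 in AGO2, AGO1/2 and AGO1/2/3 nuclei did not pass on reads. In TPM they were -0.37, -0.47 and -0.50, each lower with a limma adjusted p of 0.00746, 6.5e-04 and 4.8e-04. Without wild-type passage 29 the read-based changes were 0.32, 0.26 and 0.32 and passed (edgeR adjusted p = 0.00755, 0.0119 and 0.00429).

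The AGO1/2/3 and AGO1/2 lines were also compared with each other, to ask what loss of AGO3 adds. In cytoplasmic RNA 0 of the 8 target genes were called (2.47% of all genes were higher and 2.48% lower). DESeq2 and limma also called 0, and 1 gene had an unadjusted edgeR p under 0.05. The log2 fold changes ran from -0.24 for CCND1 to 0.11 for ZNFX1, and 2 genes, CCND1 and E2F3, did not overlap between the lines (28.5% of all genes). In nuclear RNA 0 were higher and 2 lower (1.74% and 1.74% of all genes), which were the CCND1 and E2F1 changes given above. There, 6 of the 8 genes did not overlap and were lower in AGO1/2/3 cells (29.3% of all genes did not overlap in either direction). With TPM, 4 target genes were lower in that comparison, where 151 of 18919 genes were higher and 2146 lower. There 6.57% of all calls were higher and not 50.1%.

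Nuclear and cytoplasmic RNA of wild-type cells were compared to place each messenger. Relative to the reads of each fraction, 0 of the 8 target genes were higher and 4 were lower in the nucleus (39.6% and 37.3% of all genes), and 3 did not overlap (72.2%). CCND1 had a log2 fold change of -1.0 ± 0.103 (edgeR adjusted p = 2.2e-09), E2F1 of -0.68 ± 0.0993 (8.7e-07), ZBTB4 of -0.53 ± 0.0724 (3.5e-07) and E2F3 of -0.35 ± 0.128 (0.0151). The E2F3 call was lost without cytoplasmic passage 27 or nuclear passage 29, with DESeq2 (-0.25, adjusted p = 0.0709) and with a mean of at least 50 reads in edgeR (-0.12, 0.358). With the culture as a replicate block, RBL2 was also lower (log2 fold change -0.19, edgeR adjusted p = 0.00185), whereas it did not pass without the block (0.113). On the TPM scale, where the median over all genes was 0.29 and 75.2% of calls were higher and not 51.5%, the picture differed. Of 20104 genes 11516 were higher on that scale and 3793 lower. There CCND1 was lower (-0.35, limma adjusted p = 0.0132), and BCL2L11 (0.95), RBL1 (0.64), RBL2 (1.18) and ZNFX1 (0.72) were higher, while ZBTB4 (0.02) and E2F3 (0.15) turned to positive values that did not pass.

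Whether the AGO1/2/3 change differed between the fractions was tested as an interaction, with the nuclear change minus the cytoplasmic change as its value. It was fitted over all 30 libraries with 1 scaling, so its value need not equal the difference of the changes fitted within each fraction. Of the 8 genes 1 had a higher and 1 a lower value (11.7% and 11.1% of all genes). BCL2L11 had a value of -0.76 ± 0.186 (edgeR adjusted p = 0.00409) and CCND1 of 0.43 ± 0.144 (0.0334). The other 6 genes had values of -0.27 to 0.11 that did not pass. The values in TPM were -0.94 for BCL2L11 and 0.47 for CCND1, and RBL2 passed as well with -0.57 (limma adjusted p = 0.00334). The CCND1 call was lost without cytoplasmic wild-type passage 27, nuclear wild-type passage 28 or 29, cytoplasmic AGO1/2/3 passage 11, or nuclear AGO1/2/3 passage 12 or 14 (0.35 to 0.43), and with RLE scaling (0.41, edgeR adjusted p = 0.0502). With the culture as a replicate block RBL2 passed on reads too (-0.26, edgeR adjusted p = 0.00568).

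The transcripts that made up a gene's reads differed between fractions, and not all of them hold a seed match. In wild-type cytoplasm, transcripts with a 7mer or 8mer site made up 77.1% of the TPM of BCL2L11, 47.9% of RBL1, 93.4% of RBL2, 98.6% of ZNFX1 and 99.2% of CCND1. In wild-type nuclei the shares were 58.4%, 34.9%, 38.5%, 81.2% and 91.3%. For E2F1, E2F3 and ZBTB4 all of the TPM lay in such transcripts in every group. In AGO2, AGO1/2 and AGO1/2/3 nuclei the share was larger than in wild type for each of those 5 genes, and in AGO1 nuclei for RBL1, RBL2 and ZNFX1. In AGO2 nuclei it was 65.2% for BCL2L11, 55.2% for RBL2 and 84.6% for ZNFX1. In AGO1/2 and AGO1/2/3 nuclei it reached 76.5% and 74.4% for BCL2L11, 69.6% and 64.0% for RBL2, and 94.1% and 93.5% for ZNFX1. These shares are estimates divided among overlapping transcripts and were not tested.

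Among nuclear BCL2L11 transcripts, the 8mer-bearing BCL2L11-204 was at 3.93, 3.74 and 4.35 TPM in wild type, 5.28, 4.67 and 4.13 in AGO1/2, and 3.33, 3.40 and 2.47 in AGO1/2/3 cells. BCL2L11-205, a coding transcript of 425 nt with no match, was at 1.34, 2.92 and 2.31 TPM in wild type and at 0.558, 0.564 and 0 in AGO1/2/3 nuclei. It was listed at 0 in all wild-type cytoplasmic libraries. Both transcripts were therefore lower in TPM in AGO1/2/3 than in wild-type nuclei, with no overlap of the libraries. The median over all genes there was -0.16 on log2(TPM + 1), with 7483 genes lower and 2704 higher. The share of all transcripts that did not overlap was not counted.

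Among nuclear RBL2 transcripts, the full-length RBL2-201, which holds the 8mer, was at 5.39, 6.10 and 6.17 TPM in wild type, 7.49, 6.97 and 7.93 in AGO1/2, and 6.39, 6.86 and 6.84 in AGO1/2/3 cells. Every library of both knockouts lay above wild type, and the share of all transcripts that did so was not counted. The retained-intron transcript RBL2-206, of 745 nt and without a 3′ UTR, was at 4.29, 3.82 and 5.24 TPM in wild type, 1.60, 1.32 and 1.99 in AGO1/2, and 1.78, 1.92 and 1.93 in AGO1/2/3 cells. The total and the site-bearing transcript of nuclear RBL2 thus moved in opposite directions on the TPM scale. In ZNFX1, the 8mer-bearing ZNFX1-204 had nuclear means of 10.1 TPM in wild type, 21.7 in AGO1/2 and 16.6 in AGO1/2/3, and ZNFX1-201, which lacks a 3′ UTR, had means of 3.03, 1.75 and 1.57.

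**Figure D3:**
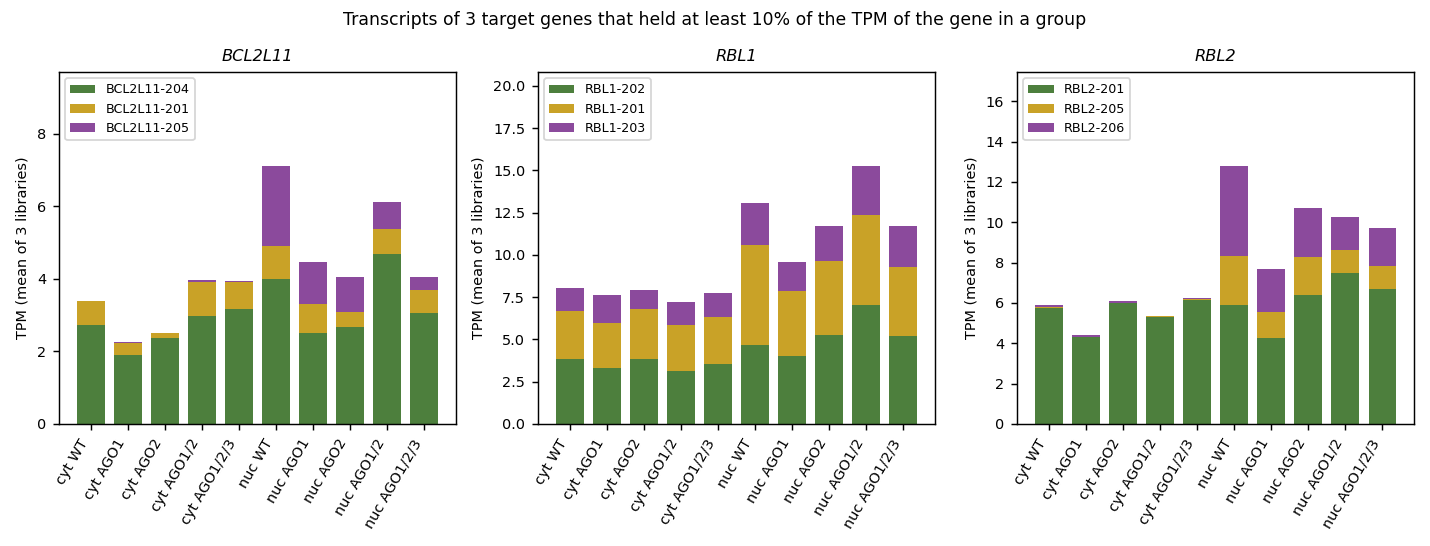
Mean TPM of 3 libraries for the transcripts of BCL2L11, RBL1 and RBL2 on the vertical axis, stacked, in each genotype and fraction. The nuclear wild-type RBL2 column holds 5.89 TPM of the site-bearing RBL2-201 and 4.45 TPM of the retained-intron RBL2-206, against 6.69 and 1.88 in AGO1/2/3 nuclei.

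Host genes of the miRNAs and related gene lists were read from the same fits. MIR17HG, the host RNA of the miR-17-92 cluster, was lower in AGO1/2 nuclei (log2 fold change -1.17, edgeR adjusted p = 1.8e-07) and AGO1/2/3 nuclei (-0.91, 3.7e-06) and higher in AGO1 nuclei (0.42, 0.00754). MCM7, a replication helicase subunit whose intron holds the miR-106b-25 cluster, was lower in AGO1/2 and AGO1/2/3 cytoplasm (-0.83 and -0.40) and higher in their nuclei (0.40 and 0.32). Host RNA levels do not measure the mature miRNAs, which were not measured here.

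Another 15 reported targets of the family were tested in each comparison. In cytoplasmic AGO1/2/3 cells 8 were higher and 1 lower, with a median log2 fold change of 0.32, where 18.6% of all genes were higher and 20.0% lower. For AGO1/2 cytoplasm 6 were higher and 4 lower (0.24), or 40.0% and 26.7% of the list beside 23.9% and 25.4% of all genes. In AGO1 and AGO2 cytoplasm 1 and 0 were higher and 1 and 1 lower (4.28% and 7.07% of all genes higher, 8.13% and 9.0% lower). In nuclei 8 were higher and 1 lower in AGO1/2/3 (29.1% and 29.5% of all genes), 9 higher and 3 lower in AGO1/2 (32.9% and 34.7%), 1 higher and 5 lower in AGO2 (20.2% and 19.9%), and 0 higher and 2 lower in AGO1 cells (14.3% and 15.6%). RUNX1, a transcription factor, was higher in AGO1/2/3 cytoplasm and nuclei (1.01 and 1.04, edgeR adjusted p = 2.6e-05 and 4.5e-07). The receptor BMPR2 was higher in both as well (0.58 and 0.71), whereas the receptor TGFBR2 was higher in cytoplasm (0.64, 3.1e-05) and at -0.07 without a call in nuclei.

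The other lists hold genes related to the target genes, to be read against 18.6% of all genes higher and 20.0% lower in AGO1/2/3 cytoplasm. Of 15 genes that E2F factors activate, 1 was higher and 7 lower in AGO1/2/3 cytoplasm (median -0.28), with CCNE2 at -0.65, MCM6 at -0.50 and CCNE1 at -0.46. In AGO1/2/3 nuclei 8 were higher and 2 lower (0.28), where 29.1% of all genes were higher and 29.5% lower, and in AGO1/2 nuclei 11 were higher and 1 lower (32.9% and 34.7%). Of 15 E2F and RB partners, 3 were higher and 5 lower in AGO1/2/3 cytoplasm, with E2F5 at -0.89, LIN9 at -0.87 and E2F8 at -0.85. Of 10 genes of the BCL2 family, in which BIM acts, 2 were higher and 1 lower in AGO1/2/3 cytoplasm, and the named changes were -2.20 for BCL2, 1.13 for BCL2L1 and 0.23 for BAX. Of 6 arrestin-domain and MondoA genes related to TXNIP, 2 were higher and 2 lower there, with ARRDC4 at -0.94, ARRDC1 at 0.46 and MLX at 0.30.

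The target genes were set beside all tested genes grouped by their best seed match. Genes whose best match was only the 6mer CACTTT formed a class of their own, so genes with no match lacked this too. In cytoplasmic AGO1/2 RNA 35.1% of 733 genes with an 8mer were higher and 26.1% lower (median log2 fold change 0.07), against 25.3% and 28.2% of 7028 genes with no match (-0.02). In AGO1/2/3 cytoplasm the shares were 29.7% and 22.0% with an 8mer (0.05) and 20.4% and 21.9% with no match (-0.02). The 8mer medians were -0.05 in AGO1 and -0.03 in AGO2 cytoplasm. In nuclear AGO1/2 and AGO1/2/3 RNA the order was the opposite, with medians of 0.11 and 0.05 for genes with an 8mer and 0.21 and 0.16 for genes with none. The 5 tested target genes with an 8mer had AGO1/2 cytoplasm changes of 1.14 (ZBTB4), 0.67 (ZNFX1), 0.56 (BCL2L11), 0.28 (RBL2) and -0.16 (E2F3). The spread of single genes within a class is not given by these medians. The classes were not matched for 3′ UTR length. An 8mer was held by 8.43% of genes with a 3′ UTR of at least 1255 nt and by 4.48% of all genes with one. The part of 3′ UTR length in these values was not tested.

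**Figure D4:**
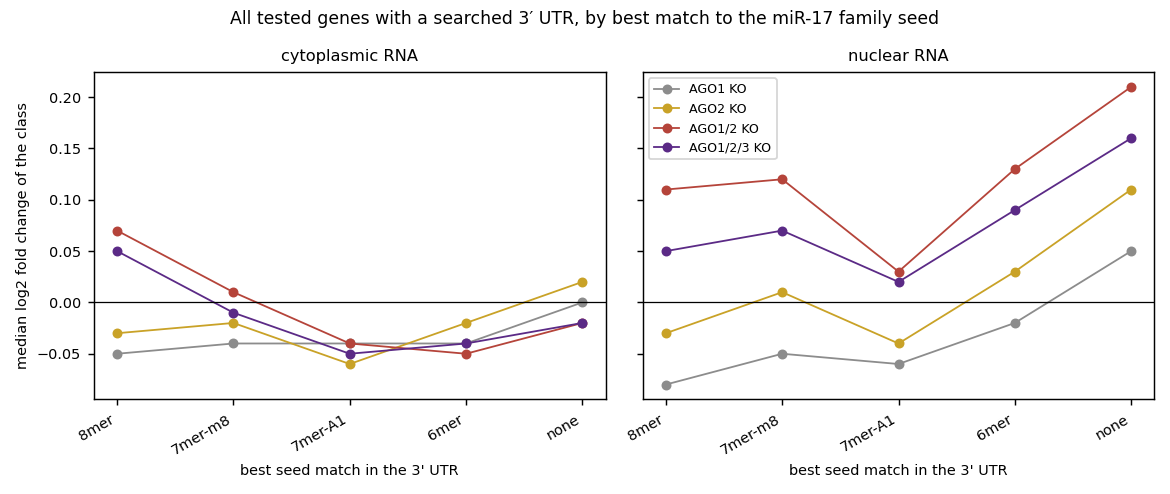
Median log2 fold change against wild type on the vertical axis for all tested genes grouped by best seed match in the 3′ UTR, in each knockout line and fraction. In cytoplasmic AGO1/2 RNA the 8mer median is 0.07 and the median of genes with no match is -0.02, while in nuclear AGO1/2 RNA they are 0.11 and 0.21. Genes with no match also lack the 6mer CACTTT.

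As a description of likeness, the gene with the highest Pearson r to each member over the 15 cytoplasmic libraries was sought among 17604 genes. It was CTDSPL for CCND1 (0.992), GNAI2 for ZBTB4 (0.992), ZBTB20 for ZNFX1 (0.967), PLXND1 for BCL2L11 (0.979), FAM86DP for E2F1 (0.963), PHF13 for E2F3 (0.929), FN3KRP for RBL1 (0.958) and LDAF1 for RBL2 (0.979). These points share their libraries, scaling and genotypes.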

How the data were processed

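Nuclear and cytoplasmic RNA of HCT116 cells was sequenced as ribosomal RNA-depleted, stranded paired-end libraries. The authors quantified transcripts with Salmon, and the deposited values are estimated counts and TPM (length-corrected transcript abundance) per transcript. The submitters' processing notes name STAR 2.5.3a, Salmon 0.11.0 and hg38, and the annotation release could not be settled from the sources used here. Of 38 labelled samples, 8 protein-binding samples were not analysed here.

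Transcripts were matched to GENCODE v44 by identifier without version (196040 of 200401; unmatched transcripts held 2.23% to 4.01% of reads). Estimated counts were summed per gene, rounded and tested with the quasi-likelihood test of edgeR 4.0.16 (R 4.3.3) after TMM scaling and filterByExpr (minimum count 10), with 1 fit of the 15 libraries of a fraction and 1 of all 30 for nuclear against cytoplasmic RNA and the interaction. A gene counts as called when its p, adjusted over all genes of the fit (Benjamini-Hochberg), was at most 0.05. All tests are two-sided, and the scripts were tested on simulated data. Passages of 1 line are the replicates, so p-values measure only the spread between passages. Alternatives were DESeq2 1.42.0, RLE scaling, other count filters, length-scaled reads, limma 3.58.1 on log2(TPM + 1) and log2(TPM + 0.1), fits of the compared groups alone, leaving out each library, and the culture as a replicate block. A fold change on log2(TPM + 1) understates that of low genes. The TPM values were not scaled further between libraries.

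The culture comes from the passage number in the labels. Deviations of the nuclear and cytoplasmic library of a wild-type passage from their group means correlated by 0.156, 0.148 and 0.402 over 20104 genes. All 10 target genes are named whatever their values. From each other list, up to 3 genes with the largest change among those called in AGO1/2/3 cytoplasm are named. The members and lists were chosen with earlier results of these data known. The sequence of 1 seed match is not reported here.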

Additional observations from a re-analysis of the deposited data

Results flagged for a closer look

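The change of 2 target genes in AGO1/2/3 cells differed between nuclear and cytoplasmic RNA by a test of the difference itself. For BCL2L11 the nuclear minus cytoplasmic log2 fold change was -0.76 (edgeR adjusted p = 0.00409), and the separate fits of each fraction gave a cytoplasmic change of 0.46 and a nuclear change of -0.22. For CCND1 it was 0.43 (edgeR adjusted p = 0.0334), and the separate fits gave 1.01 and 1.52. The difference was fitted over all 30 libraries, with another scaling, and so is not the subtraction of these values. The CCND1 difference did not pass with RLE scaling or with a filter of 50 reads.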

How the results depend on the processing

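Genotype, clone, passage and depth (lowest in wild type) cannot be told apart, and the reads per library limit CCND2. The CCND1 and ZBTB4 increases in AGO1/2 and AGO1/2/3 cells kept their direction and their call in both fractions under every alternative run. The cause of a change was not tested for any gene.

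The number of target genes called changed as follows. With limma, on log2(TPM + 1) and on log2(TPM + 0.1) alike, it was 4 in cytoplasmic AGO1 (1 by edgeR), 3 in cytoplasmic AGO1/2 (7), 4 in cytoplasmic AGO1/2/3 (7), 2 in nuclear AGO2 (5) and 4 in nuclear AGO1/2/3 against AGO1/2 RNA (2). The counts over all genes on log2(TPM + 1) are given in the Results. With fits of the compared groups alone, which have fewer libraries, it was 0 in cytoplasmic AGO1 and AGO2, 4 in cytoplasmic AGO1/2 and 4 in AGO1/2/3, 0 in nuclear AGO1 and 0 in nuclear AGO1/2/3 against AGO1/2 RNA. Without a count filter it was 4 in the last of these. The interaction count was 1 with RLE scaling and 1 with a mean of at least 50 reads (2 by edgeR).

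Leaving out 1 library at a time, the counts ran from 0 to 2 in cytoplasmic AGO1, 0 to 4 in AGO2, 6 to 8 in AGO1/2 and 4 to 7 in AGO1/2/3, and from 2 to 3 in nuclear AGO1, 4 to 5 in AGO2, 5 to 6 in AGO1/2 and 3 to 6 in AGO1/2/3. They ran from 0 to 0 and 0 to 3 for AGO1/2/3 against AGO1/2 in cytoplasm and nuclei, 3 to 5 for nuclear against cytoplasmic RNA and 1 to 2 for the interaction. In cytoplasmic AGO1 the count was 2 without wild-type passage 27 or 28 and 0 without AGO1 passage 6 or 7. In cytoplasmic AGO2 it was 4 without wild-type passage 29, 1 without wild-type passage 28 or AGO2 passage 10, and 0 without AGO2 passage 8 or 9. The cytoplasmic AGO1/2/3 count was 4 without wild-type passage 27 or 28.

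With the culture as a replicate block, 5 target genes were called in nuclear against cytoplasmic RNA and 3 in the interaction, where RBL2 was added with -0.26 (edgeR adjusted p = 0.00568). The AGO1/2/3 passages correlated by -0.024, 0.038 and 0.035 between fractions. No other call changed with the block. Knockout and wild-type passages share no number, so no block could be made for the knockout comparisons.

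Directions of single genes turned in log2(TPM + 1), with the log2(TPM + 0.1) value after it, as follows. In cytoplasmic AGO2 RBL1 was at -0.01 and -0.01 and ZBTB4 at -0.03 and -0.04. For cytoplasmic AGO1/2, E2F1 was at -0.02 and -0.02, RBL1 at -0.13 and -0.14 and RBL2 at -0.12 and -0.14. Against wild type in cytoplasmic AGO1/2/3, E2F1 was at -0.01 and -0.01 and RBL1 at -0.04 and -0.04. For cytoplasmic AGO1/2/3 against AGO1/2, E2F3 was at 0.01 and 0.02, BCL2L11 at 0.03 and 0.04, RBL1 at 0.09 and 0.10 and ZBTB4 at 0.11 and 0.12. In nuclear AGO1 E2F3 was at -0.14 and -0.15 and ZBTB4 at -0.19 and -0.23. In nuclear AGO2 RBL1 was at -0.14 and -0.15 and RBL2 at -0.37 and -0.39. In nuclear AGO1/2 BCL2L11 was at -0.26 and -0.29 and RBL2 at -0.47 and -0.50. In nuclear AGO1/2/3 RBL1 was at -0.13 and -0.14 and RBL2 at -0.50 and -0.54. For nuclear AGO1/2/3 against AGO1/2 RBL2 was at -0.03 and -0.03. For nuclear against cytoplasmic RNA E2F3 was at 0.15 and 0.17, RBL2 at 1.18 and 1.29 and ZBTB4 at 0.02 and 0.02. For the interaction E2F1 was at 0.02 and 0.02.

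With reads scaled by transcript length, RBL1 turned to 0.08 in cytoplasmic AGO1, E2F1 and CCND1 to 0.01 in nuclear AGO1, BCL2L11 to -0.18 in nuclear AGO1/2, and RBL2 to -0.11, -0.40 and -0.26 in nuclear AGO2, AGO1/2 and AGO1/2/3 and to 0.67 for nuclear against cytoplasmic RNA. Without a count filter, RBL1 and ZBTB4 turned to 0.01 in cytoplasmic AGO1 and E2F1 to 0.02 in nuclear AGO1. BCL2L11, RBL1 and ZNFX1 turned to -0.08, -0.12 and -0.06 for nuclear against cytoplasmic RNA, and E2F1, RBL1 and ZBTB4 to 0.06, 0.03 and 0.04 for the interaction. With a mean of at least 50 reads, ZBTB4 turned to -0.03 in nuclear AGO1 and RBL2 to -0.02 in nuclear AGO1/2 and to 0.04 for nuclear against cytoplasmic RNA.

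Leaving out 1 library at a time turned the direction of these changes, none of which was called with all libraries. In AGO1 cytoplasm E2F3 ran from -0.20 to 0.07, RBL1 from -0.06 to 0.02 and ZBTB4 from -0.06 to 0.04, and in AGO2 cytoplasm BCL2L11 from -0.11 to 0.02. In AGO1 nuclei E2F1 ran from -0.07 to 0.02, E2F3 from -0.10 to 0.18, ZBTB4 from -0.04 to 0.09 and CCND1 from -0.09 to 0.02. Nuclear E2F3 ran from -0.22 to 0.05 in AGO2 and from -0.03 to 0.25 in AGO1/2. Between AGO1/2/3 and AGO1/2, cytoplasmic ZBTB4 ran from -0.10 to 0.01 and nuclear RBL2 from -0.01 to 0.13. Between nuclear and cytoplasmic RNA BCL2L11 ran from -0.01 to 0.11, RBL1 from -0.08 to 0.12 and ZNFX1 from -0.07 to 0.21. In the interaction E2F1 ran from -0.24 to 0.03 and ZNFX1 from -0.03 to 0.24.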
